A study of Rattus norvegicus with 23 samples.

Results

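The interleukin-1 (IL-1) family and inflammasome genes described here were 10 genes chosen by name for their roles, out of 20301 genes in the authors' table of log2 expression values. They comprised 3 ligands (Il1a, Il1b and Il18), 1 receptor antagonist (Il1rn), 2 chains of the signalling receptor (Il1r1 and Il1rap), 1 decoy receptor (Il1r2) and 3 inflammasome components (Nlrp3, Pycard and Casp1). All 10 were present in the table. The values were measured by RNA sequencing in microglia of Wistar rat pups of both sexes, operated at postnatal day 7 and analysed 24 h later, in 23 samples. The Sham group (n = 6) had a neck incision under isoflurane anesthesia and no injection. The LPS group (n = 5) had 0.1 mg/kg Escherichia coli lipopolysaccharide intraperitoneally 4 h before the same sham surgery. The NaCl/HI group (n = 6) had saline and then hypoxia-ischemia (HI), that is ligation of the left common carotid artery followed by 50 min at 8% oxygen. The LPS/HI group (n = 6) had LPS at the same dose and time before the same HI. Sham and LPS samples came from entire brains of 1 pup, whereas each HI sample held the ipsilateral hemispheres of 2 pups, so HI, brain region and pooling cannot be told apart between them, and neither can an injection and its absence in comparisons with Sham. Cells were captured with magnetic beads against CD11b/c, a surface marker that monocytes, macrophages and neutrophils carry too.

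Depth is unknown, because the table holds rlog values and no read counts. These log2 values draw weakly expressed genes together and carry no correction for transcript length, so values were compared between groups and not between genes. The microglial markers P2ry12, Tmem119 and Cx3cr1 had group means of 13.76 to 14.12, 12.10 to 12.62 and 15.46 to 15.63 on this scale. In such bulk samples, fewer cells of a type and less RNA per cell cannot be told apart. Differences are log2 differences between group means with the standard error (SE) of limma, a linear model with variances moderated across genes, fitted to all 23 samples. A gene was called where its p, adjusted over all 20301 genes by Benjamini-Hochberg, was under 0.05.

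IL-1 signalling is one of the earliest steps of sterile and microbial inflammation. IL-1α and IL-1β bind the receptor IL1R1, which recruits the accessory protein IL1RAP and signals through MyD88 and IRAK kinases to NF-kB. The antagonist encoded by Il1rn occupies the receptor without signalling, and the decoy receptor IL1R2 binds IL-1β without a signalling domain. IL-1β and IL-18 are made as inactive precursors, and caspase-1 cleaves them within the inflammasome, in which a sensor such as NLRP3 joins the adaptor ASC (encoded by Pycard) to caspase-1. Microglia are a main source of IL-1β in the injured neonatal brain.

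To place genes described below, the 250 bases before the RefSeq start site (rat build GRCr8, read on the strand of the gene, 5′ to 3′) are given for Il1b, Il1rn, Il1r1, Pycard and Casp1. All of these but Il1rn were called in a comparison below. Of the 10 members, 9 had a RefSeq promoter window and Il1r2 is named only. Capitals mark a match to the NF-kB consensus on either strand.
Il1b (chr3:137036582-137036831, minus strand): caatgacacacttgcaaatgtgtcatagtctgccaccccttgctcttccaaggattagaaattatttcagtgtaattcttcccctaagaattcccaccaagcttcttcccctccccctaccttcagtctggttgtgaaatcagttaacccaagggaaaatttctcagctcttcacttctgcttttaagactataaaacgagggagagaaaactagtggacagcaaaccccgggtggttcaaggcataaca
Il1rn (chr3:27520072-27520321, plus strand): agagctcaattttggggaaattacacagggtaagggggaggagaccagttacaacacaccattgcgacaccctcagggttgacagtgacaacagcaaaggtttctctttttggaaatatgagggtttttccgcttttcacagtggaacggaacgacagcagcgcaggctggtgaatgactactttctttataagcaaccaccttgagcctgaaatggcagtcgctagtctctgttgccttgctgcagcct
Il1r1 (chr9:50034133-50034382, plus strand): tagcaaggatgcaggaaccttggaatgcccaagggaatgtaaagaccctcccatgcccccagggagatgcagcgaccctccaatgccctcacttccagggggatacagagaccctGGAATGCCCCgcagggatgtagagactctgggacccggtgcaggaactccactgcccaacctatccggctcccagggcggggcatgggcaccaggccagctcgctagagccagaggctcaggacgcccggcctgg
Pycard (chr1:192033420-192033669, minus strand): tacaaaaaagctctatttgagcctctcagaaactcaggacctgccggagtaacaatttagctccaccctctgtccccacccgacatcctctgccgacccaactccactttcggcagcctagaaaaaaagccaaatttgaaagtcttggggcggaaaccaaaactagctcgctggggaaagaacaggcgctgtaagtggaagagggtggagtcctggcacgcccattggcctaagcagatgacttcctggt
Casp1 (chr8:10872580-10872829, plus strand): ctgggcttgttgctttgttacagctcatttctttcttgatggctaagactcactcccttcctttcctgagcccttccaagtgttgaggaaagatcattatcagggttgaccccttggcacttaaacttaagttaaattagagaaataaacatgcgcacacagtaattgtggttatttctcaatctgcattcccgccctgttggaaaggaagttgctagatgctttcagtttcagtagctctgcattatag
In windows of 300 bases that also took in the 50 bases after the start, the NF-kB consensus was found in 4.18% of 33469 rat promoter windows, searched on both strands. Among the members it was found in Il1r1, at position -135 on the opposite strand, and in Il1rap. No match stood in the windows of Il1a, Il1b, Il18, Il1rn, Nlrp3, Pycard or Casp1. The core of the hypoxia response element (ACGTG or GCGTG) occurred in 41.6% of all windows and in those of Il18, Il1r1, Il1rap and Pycard, and none of these overlapped an NF-kB match. The C/EBP sequence TTGCGCAA occurred in 0.17% of all windows and in none of the members'. These matches are letters in a window and were not tested for binding.

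Among the ligands, Il1b rose in LPS against Sham, 24 h after the operation. In the 5 LPS samples its log2 values were 12.12, 12.33, 12.33, 12.28 and 12.51, against a lowest, median and highest value of 11.58, 11.89 and 12.12 in Sham. The LPS and Sham groups did not overlap, although only narrowly, with the lowest LPS sample at 12.122 and the highest Sham sample at 12.119. In the NaCl/HI group the lowest, median and highest log2 values were 11.49, 11.76 and 12.21, and in the LPS/HI group they were 11.95, 12.24 and 12.39. Both groups given LPS thus had the higher means, and LPS/HI overlapped every other group. Il1b was higher in LPS than in Sham by a log2 difference of 0.43 ± 0.12 (SE, 1.35-fold, limma adjusted p = 0.0162), with all 5 LPS samples above the Sham mean. It was also higher in LPS than in NaCl/HI, by 0.54 ± 0.12 (1.46-fold, limma adjusted p = 0.00574). Both calls held when any 1 of the 23 libraries was left out.

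The Il1b difference between LPS/HI and Sham was 0.34 ± 0.11 on the log2 scale and did not pass (limma adjusted p = 0.0652), with 6 of 6 LPS/HI samples above the Sham mean. That between LPS/HI and NaCl/HI was 0.45 ± 0.11 (limma adjusted p = 0.0956), again with 6 of 6 samples above the other mean. The former passed when Sham replicate 3 (adjusted p = 0.0462), NaCl/HI replicate 4 (adjusted p = 0.0325) or LPS/HI replicate 1 (adjusted p = 0.0318) was left out of the limma fit. The former also passed with 19 residual degrees of freedom, in a fit of only these groups and with the library series as a term (limma adjusted p = 0.0342 to 0.0398). The latter passed without NaCl/HI replicate 4 (adjusted p = 0.0412) or LPS/HI replicate 1 (adjusted p = 0.0455). NaCl/HI alone did not move Il1b past the test, with a difference from Sham of -0.12 and a 95% interval of -0.35 to 0.12. LPS/HI and LPS differed by -0.09, with an interval of -0.34 to 0.16.

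Il1a, which lies next to Il1b in the RefSeq gene order and encodes the ligand that is active without cleavage, passed the test in no comparison. Its group means ± SD on the log2 scale were 11.45 ± 0.32 in Sham, 11.40 ± 0.23 in LPS, 11.25 ± 0.14 in NaCl/HI and 11.64 ± 0.23 in LPS/HI. The LPS difference from Sham was -0.05 ± 0.14 (SE), beside the 0.43 of Il1b. The widest gap was between LPS/HI and NaCl/HI, at 0.39 ± 0.13 with an unadjusted limma p of 0.00804 and an adjusted p of 0.252. The groups overlapped, although 6 of 6 LPS/HI values exceeded the NaCl/HI mean.

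Il18, the ligand that drives interferon-γ production, had its lowest mean in LPS. The LPS samples had log2 values of 9.82, 9.78, 9.89, 9.70 and 9.64, and those of Sham ranged from 9.88 to 9.98. These groups overlapped by 1 LPS sample only. The difference was -0.17 ± 0.063 (SE, limma adjusted p = 0.063), with all 5 LPS samples below the Sham mean. It passed in limma without LPS replicate 3 (-0.20, adjusted p = 0.0428), with 19 residual degrees of freedom (0.034), in a fit of only these groups (0.026) and after quantile normalization (0.0308), and in the exact two-sided Wilcoxon test adjusted over all genes (adjusted p = 0.0452). In the other comparisons Il18 differed by -0.12 to 0.10 and did not pass.

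**Figure D1:**
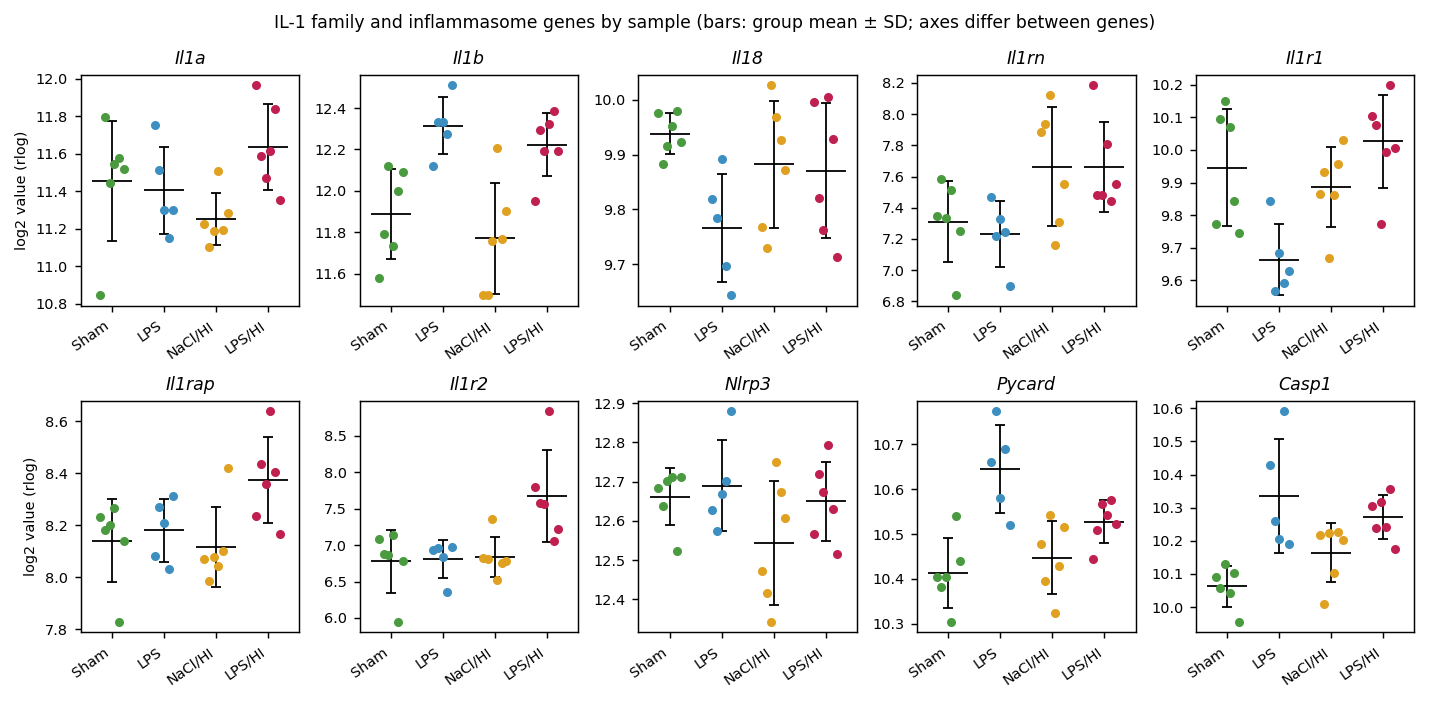
Log2 (rlog) value of each of the 10 genes in each of the 23 samples by group (points), with the group mean ± SD (bars), each gene on its own axis that does not start at 0. All 5 LPS samples lie above all Sham samples for Il1b and Casp1, 4 of 5 LPS samples lie above all others for Pycard, and 4 of 6 LPS/HI samples lie above all others for Il1r2.

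The antagonist gene Il1rn did not pass in any comparison, and its spread within groups was wide. In the LPS/HI samples the log2 values were 7.44 at the lowest, 7.52 at the median and 8.19 at the highest, and in NaCl/HI they were 7.16, 7.72 and 8.13. In Sham the same 3 values were 6.84, 7.34 and 7.58. The 5 LPS samples had 7.47, 7.22, 7.33, 7.25 and 6.90. Both HI groups had the higher means, 7.66 each, against 7.31 in Sham and 7.23 in LPS, and all groups overlapped. In NaCl/HI the values were 7.89, 7.94 and 8.13 in library numbers 1 to 12 and 7.16, 7.31 and 7.55 in numbers 13 to 23. The NaCl/HI difference from Sham was 0.56 in the former and 0.14 in the latter. The difference of NaCl/HI from Sham was 0.35 ± 0.16 (SE), with a 95% interval of 0.0091 to 0.69, an unadjusted limma p of 0.0447 and an adjusted p of 0.325. For LPS/HI against LPS it was 0.43 ± 0.17, with all 6 samples above the LPS mean and a limma adjusted p of 0.217.

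Of the signalling receptor chains, Il1r1 fell after LPS, and LPS/HI was above LPS. The 5 LPS samples had log2 values of 9.84, 9.57, 9.69, 9.59 and 9.63. The lowest, median and highest values were 9.74, 9.96 and 10.15 in Sham, 9.67, 9.90 and 10.03 in NaCl/HI, and 9.77, 10.04 and 10.20 in LPS/HI. Of the LPS samples, 3 of 5 lay below every sample of the other groups, while the highest LPS sample overlapped all of them. Il1r1 was lower in LPS than in Sham by a log2 difference of -0.28 ± 0.086 (SE, 1.22-fold, limma adjusted p = 0.0265), with 5 of 5 samples below the Sham mean. LPS/HI exceeded LPS by 0.36 ± 0.086 (1.29-fold, limma adjusted p = 0.0336), and each of the 6 samples was above the LPS mean. The first was lost without Sham replicate 2, 3 or 4 or LPS replicate 2 or 4 (limma adjusted p up to 0.073, difference between -0.33 and -0.24). The second was lost without LPS/HI replicate 1, 2, 4 or 5, and likewise without LPS replicate 2, 4 or 5 (limma adjusted p up to 0.113, difference between 0.33 and 0.41). The first did not pass in the exact Wilcoxon test (adjusted p = 0.0697). Neither passed with the replicate number as a block (limma adjusted p = 0.0627 and 0.0945). LPS/HI and Sham differed by 0.080 ± 0.082, which did not pass.

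The interaction of LPS with HI, which asks whether the log2 effect of LPS differs with and without HI, was 0.42 ± 0.12 (SE) for Il1r1. Its unadjusted limma p was 0.0018 and its adjusted p 0.0868. It passed without LPS/HI replicate 3 (0.47, limma adjusted p = 0.0413). The interaction here also contains the change from uninjected entire brain to saline-injected ipsilateral hemisphere.

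Il1rap, the accessory chain that IL-1 and IL-33 receptors share, had its highest mean in LPS/HI and passed in no comparison. Its means ± SD on the log2 scale were 8.14 ± 0.16 in Sham, 8.18 ± 0.12 in LPS, 8.12 ± 0.15 in NaCl/HI and 8.37 ± 0.17 in LPS/HI. LPS/HI exceeded NaCl/HI by 0.26 ± 0.089 (SE, limma adjusted p = 0.259) and Sham by 0.23 ± 0.089 (limma adjusted p = 0.101), with all 6 samples above the other mean each time. All group pairs overlapped.

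The decoy receptor gene Il1r2 had the widest range of the 10 genes and rose in LPS/HI against Sham. The 6 LPS/HI samples had log2 values of 7.80, 7.57, 7.56, 8.83, 7.05 and 7.21. In Sham the lowest, median and highest values were 5.95, 6.86 and 7.13, in NaCl/HI they were 6.52, 6.80 and 7.35, and the 5 LPS samples had 6.94, 6.96, 6.84, 6.36 and 6.98. Of the LPS/HI samples, 4 of 6 lay above every sample of the other groups. All 6 lay above the highest LPS sample, and the lowest ones overlapped Sham and NaCl/HI. Il1r2 was higher in LPS/HI than in Sham by a log2 difference of 0.89 ± 0.24 (SE, 1.86-fold, 95% interval 0.40 to 1.39, limma adjusted p = 0.0256). The call was lost without Sham replicate 5, the lowest sample of all (0.66, limma adjusted p = 0.0606) and in the exact Wilcoxon test (adjusted p = 0.0612). Il1r2 is among the genes that the study picked as markers on these same samples, so its rise here is not independent evidence.

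Against LPS the Il1r2 difference of LPS/HI was 0.86 ± 0.25 (SE, limma adjusted p = 0.0721), and against NaCl/HI it was 0.83 ± 0.24 (limma adjusted p = 0.15). Without Sham replicate 5, whose value enters the shared variance, the former passed with the same difference (limma adjusted p = 0.0498). In the LPS and NaCl/HI groups Il1r2 stood near Sham, with differences of 0.034 (95% interval -0.48 to 0.55) and 0.062 (-0.43 to 0.56). Both intervals are wide, since the value spread by an SD of 0.26 to 0.63 within groups. The interaction was 0.80 ± 0.34 (SE, limma adjusted p = 0.271).

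Il1r2 and Il1r1 lie on either side of a histone gene in RefSeq order, followed by Il1rl2, Il1rl1, Il18r1 and Il18rap, further receptors of the family. As a description of the balance between decoy and signalling receptor, the log2 value of Il1r2 minus that of Il1r1 averaged -3.17 ± 0.42 (SD) in Sham, -2.85 ± 0.25 in LPS, -3.05 ± 0.37 in NaCl/HI and -2.35 ± 0.68 in LPS/HI. Only the shift between groups can be read, since the values are not per length. The LPS/HI samples ran from -3.14 to -1.16 and overlapped all groups. For Il1rn minus Il1b, antagonist against ligand, the means were -4.57 ± 0.41 in Sham, -5.08 ± 0.34 in LPS, -4.11 ± 0.61 in NaCl/HI and -4.56 ± 0.42 in LPS/HI. LPS had the lowest and NaCl/HI the highest mean, and these 2 groups overlapped as well.

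Of the inflammasome genes, Pycard and Casp1 rose after LPS while Nlrp3 passed in no comparison. Pycard, the adaptor, had log2 values of 10.66, 10.77, 10.58, 10.69 and 10.52 in the LPS samples, and a lowest, median and highest value of 10.30, 10.41 and 10.54 in Sham. Only the lowest LPS sample overlapped Sham. NaCl/HI ran from 10.32 to 10.54 and LPS/HI from 10.44 to 10.58, and 4 of 5 LPS samples lay above all samples of the other groups. Pycard was higher in LPS than in Sham by 0.23 ± 0.051 on the log2 scale (SE, 1.18-fold, limma adjusted p = 0.00331), with all 5 samples above the Sham mean and no call lost when 1 library was left out. Against NaCl/HI the LPS difference was 0.20 ± 0.051 (1.15-fold, limma adjusted p = 0.0184). This call was lost without LPS replicate 2 or 4 (adjusted p up to 0.0679), in a fit of only these groups (0.0671) and with the replicate number as a block (0.0504). In LPS/HI Pycard was 0.11 ± 0.049 above Sham and did not pass (limma adjusted p = 0.137).

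Casp1, the protease that cleaves pro-IL-1β, rose in both groups given LPS against Sham. The 5 LPS samples had log2 values of 10.43, 10.26, 10.21, 10.59 and 10.19, and the 6 LPS/HI samples had 10.31, 10.24, 10.32, 10.24, 10.36 and 10.17. In Sham the lowest, median and highest values were 9.96, 10.08 and 10.13. Neither LPS nor LPS/HI overlapped Sham, and both overlapped NaCl/HI, which ran from 10.01 to 10.23 around a median of 10.21. The LPS difference from Sham was 0.27 ± 0.064 (SE, 1.21-fold, limma adjusted p = 0.00559) and held without any 1 library. The LPS/HI difference from Sham was 0.21 ± 0.061 (1.16-fold, limma adjusted p = 0.0367). It stayed between 0.19 and 0.23 but was lost without Sham replicate 1, 2, 4, 5 or 6 or LPS/HI replicate 2, 3, 4 or 5 (adjusted p up to 0.0903), or after quantile normalization (0.18, adjusted p = 0.0599). With the replicate number as a block it did not pass either (limma adjusted p = 0.0683). NaCl/HI exceeded Sham by 0.10 ± 0.061 and did not pass (limma adjusted p = 0.446).

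Nlrp3, the sensor, had close means in all groups, at 12.66 ± 0.074 (SD) in Sham, 12.69 ± 0.12 in LPS, 12.54 ± 0.16 in NaCl/HI and 12.65 ± 0.10 in LPS/HI on the log2 scale. Its 95% interval was -0.12 to 0.18 for LPS against Sham, -0.26 to 0.023 for NaCl/HI against Sham and -0.15 to 0.13 for LPS/HI against Sham. NaCl/HI had 3 of 6 samples below those of every other group, and its gap to LPS was the widest (0.15 ± 0.071, SE, limma adjusted p = 0.223). The 3 samples were replicates 1, 2 and 3 (12.47, 12.42 and 12.34), all from library numbers 1 to 12. NaCl/HI differed from Sham by -0.26 in library numbers 1 to 12 and by 0.027 in numbers 13 to 23.

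**Figure D2:**
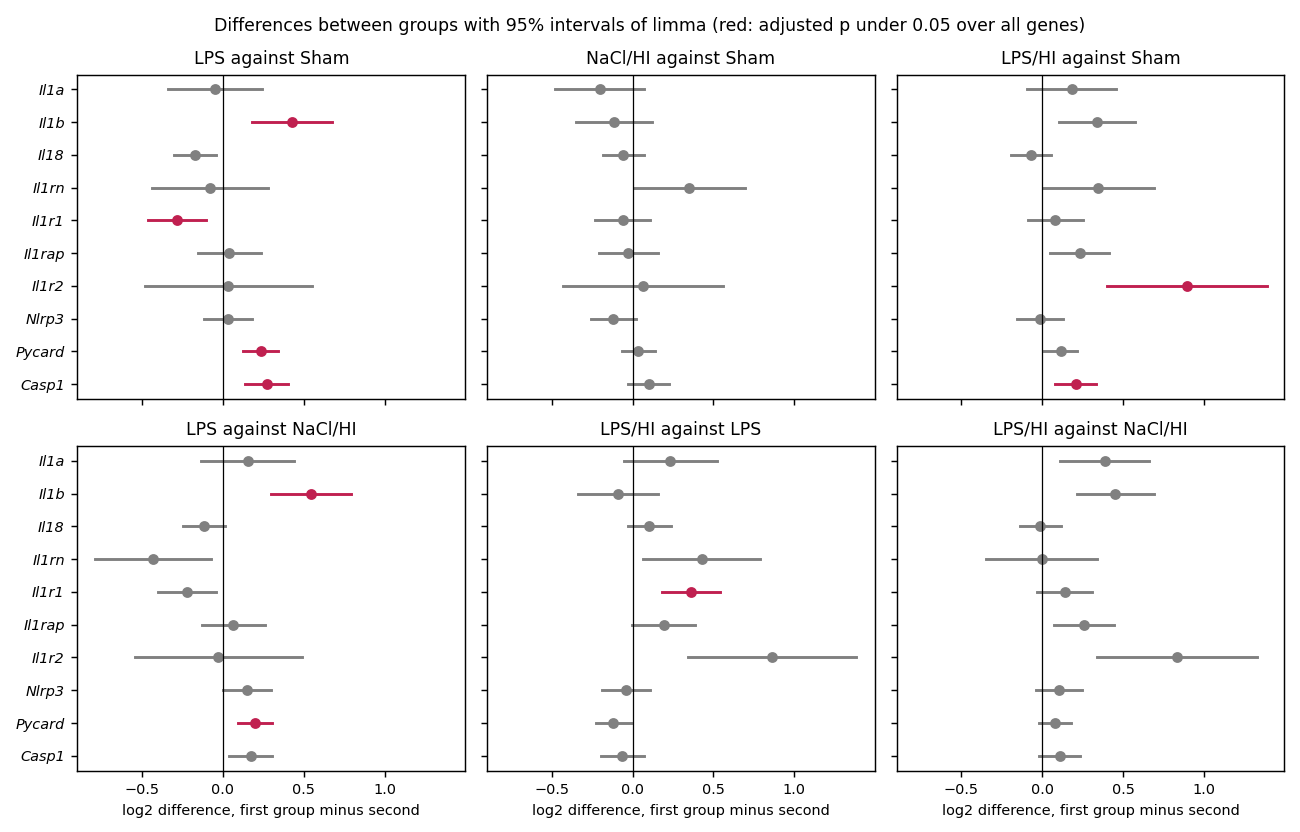
Log2 difference between group means for the 10 genes in the 6 pairs of groups (points) with the 95% interval of limma (lines), red where the adjusted p over all genes is under 0.05. Red genes are Il1b, Il1r1, Pycard and Casp1 in LPS against Sham, Il1r2 and Casp1 in LPS/HI against Sham, Il1b and Pycard in LPS against NaCl/HI, Il1r1 in LPS/HI against LPS and none in the other pairs.

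Counted together, 4 of the 10 members were called in LPS against Sham, where 17.8% of all genes were called. Of these, 3 were higher, beside 10.2% of all genes, and 1 was lower, beside 7.56%. The groups did not overlap for 2 members, Il1b and Casp1, and for 13.9% of all genes. In NaCl/HI against Sham, 0 members were called in limma (background 0.00985%), and 1 had an unadjusted p under 0.05, beside 14.8% of all genes. The exact Wilcoxon test called 0 members there and 0 of all genes. No member separated these groups, as against 1.01% of all genes. In LPS/HI against Sham, 2 members were called, both higher, where 8.77% of all genes were called and 5.3% were called higher. Leaving out 1 library gave 0 to 3 members, with 0 without Sham replicate 5 and 1 without any of the other 8 libraries named for Casp1. Only Casp1 showed no overlap in that comparison (6.37% of all genes).

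Between the 2 groups given LPS, LPS/HI against LPS, 1 member was called, Il1r1, and it was higher, where 1.94% of all genes were called and 1.22% were called higher. The count was 0 without any of the 7 libraries named for Il1r1 and 2 without Sham replicate 5. Il1r2 was the 1 member without overlap, beside 4.17% of all genes. In LPS/HI against NaCl/HI, where 0.202% of all genes were called, limma called 0 members and 4 had an unadjusted p under 0.05 (Il1a, Il1b, Il1rap and Il1r2), beside 10.6% of all genes. The exact Wilcoxon test called 0 members and 0 of all genes in this comparison. The background of groups without overlap was 1.33%, and no member was among them. In LPS against NaCl/HI, 2 members were called, both higher, where 8.98% of all genes were called and 5.32% were called higher, and 0 members showed no overlap (7.31% of all genes). That count was 1 without LPS replicate 2 or 4. The interaction called 0 members in limma (background 1.08%), with 4 at an unadjusted p under 0.05, namely Il1a, Il1r1, Il1r2 and Pycard, beside 15.1% of all genes. No member passed a fold change of 2, the size the study asked of its differential genes. The comparisons share groups and are therefore not independent of each other.

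The libraries fall into numbers 1 to 12 and 13 to 23, each with 3 samples per group except 2 LPS samples in the second. Every called member difference had the same sign in both. These differences were picked because they passed over all 23 samples, so the shared sign is not separate support. Some differences that were not called changed sign. Il1rn in LPS/HI against NaCl/HI was -0.27 and 0.26, and Il1a in LPS against Sham 0.16 and -0.32. Il1b in LPS against Sham differed by 0.43 and 0.45 on the log2 scale, Casp1 by 0.21 and 0.36, Pycard by 0.27 and 0.18, and Il1r1 by -0.31 and -0.28. Il1r2 in LPS/HI against Sham differed by 0.71 and 1.08, and Casp1 there by 0.19 and 0.22.

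To see what else of the pathway moved, 72 further genes were listed in 6 groups by role, of which 68 were in the table. In LPS against Sham, 11 of the 68 (16.2%, beside 17.8% of all genes) were called, 7 higher and 4 lower. The count was 5 (7.35%, all genes 8.77%) in LPS/HI against Sham, 2 (2.94%) each in LPS/HI against LPS (all genes 1.94%) and LPS/HI against NaCl/HI (0.202%), 13 (19.1%, all genes 8.98%) in LPS against NaCl/HI, and none in NaCl/HI against Sham (all genes 0.00985%) or for the interaction (1.08%). Among inflammasome sensors and adaptors, 3 of 14 rose and 1 fell in LPS against Sham, beside 10.2% and 7.56% of all genes. Mefv, which encodes the sensor pyrin, differed most, with a log2 mean of 9.63 ± 0.21 (SD) in LPS against 8.78 ± 0.088 in Sham and no overlap (0.85 ± 0.090, SE, limma adjusted p = 1.9e-06). In LPS/HI Mefv was intermediate at 9.22 ± 0.17, 0.45 above Sham (limma adjusted p = 0.00477), 0.41 above NaCl/HI (adjusted p = 0.0469) and lower than in LPS by -0.40 (adjusted p = 0.025). Naip6 and P2rx7 differed by 0.28 and -0.44 in LPS against Sham (limma adjusted p = 0.0184 and 0.00182). NAIP proteins sense bacterial ligands for the NLRC4 inflammasome, and P2RX7 is the ATP-gated channel that triggers NLRP3. Naip6 belongs to a family of similar genes, among which reads may be shared.

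Among pyroptosis and processing genes, Gsdmd, whose product forms the pore through which IL-1β leaves the cell, rose in LPS against Sham (0.26 ± 0.051, SE, limma adjusted p = 0.0011). It was the only 1 of 9 called, where 10.2% of all genes were called higher. In LPS/HI against Sham and against NaCl/HI the only 1 of 9 was Serpinb1a, an inhibitor of neutrophil serine proteases (0.47 and 0.73, limma adjusted p = 0.0212 and 0.0185). Of all genes, 8.77% and 0.202% were called there. In LPS against NaCl/HI, 3 of 9 rose, Serpinb1a, Gsdmd and Casp4, by 0.56, 0.28 and 0.26, beside 5.32% of all genes. Casp4, which detects intracellular LPS, lies next to Casp1 in RefSeq order.

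Of the other receptors, Il18rap, the accessory chain for IL-18, rose after LPS from a log2 mean of 8.31 ± 0.15 (SD) in Sham to 9.12 ± 0.29, with no overlap (0.82 ± 0.13, SE, limma adjusted p = 0.000174). It was the only 1 of 7 receptors called there, and against NaCl/HI it was joined by Sigirr, an inhibitory receptor (0.94 and 0.31). Of all genes, 17.8% and 8.98% were called in these comparisons. Il1rl2, the IL-36 receptor, rose in LPS/HI against Sham and against LPS (0.27 and 0.30, limma adjusted p = 0.0251 and 0.0415) at log2 means of 2.62 to 2.91, where rlog values are drawn together. Among 5 other ligands and binding proteins, Il33, an alarmin of glia, fell in LPS and in LPS/HI against Sham (-0.45 ± 0.076 and -0.26 ± 0.072, SE, limma adjusted p = 0.000324 and 0.0302). In receptor signalling, 2 of 19 rose in LPS against Sham, Irak3, a brake on the pathway (0.27), and Nfkb1 (0.14), and 1 of 19, Irak3, in LPS/HI against Sham (0.27). These counts were near the 10.2% and 5.3% of all genes called higher in the same comparisons.

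None of the genes listed as targets that IL-1 is known to induce was called higher in LPS against Sham, where 10.2% of all genes were. Of 14 in the table, 2 were lower, Ccl2 (-0.66 ± 0.12, SE, limma adjusted p = 0.00076) and Il6 (-0.30 ± 0.078, adjusted p = 0.00992), beside 7.56% of all genes. The median log2 difference of the 14 was 0.0069, beside -0.014 over all genes. In NaCl/HI against Sham all 14 had a negative difference with a median of -0.14 (all genes -0.0073), and in LPS/HI against NaCl/HI 12 of 14 had a positive one with a median of 0.21 (all genes 0.0037), none of them called. In LPS against NaCl/HI, where Il1b was called too, Vcam1 was higher (0.31 ± 0.077, SE, limma adjusted p = 0.014) and Ccl2 lower (-0.53 ± 0.12, adjusted p = 0.00799), and 12 of 14 had a positive difference with a median of 0.16 (all genes -0.0025).

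**Figure D3:**
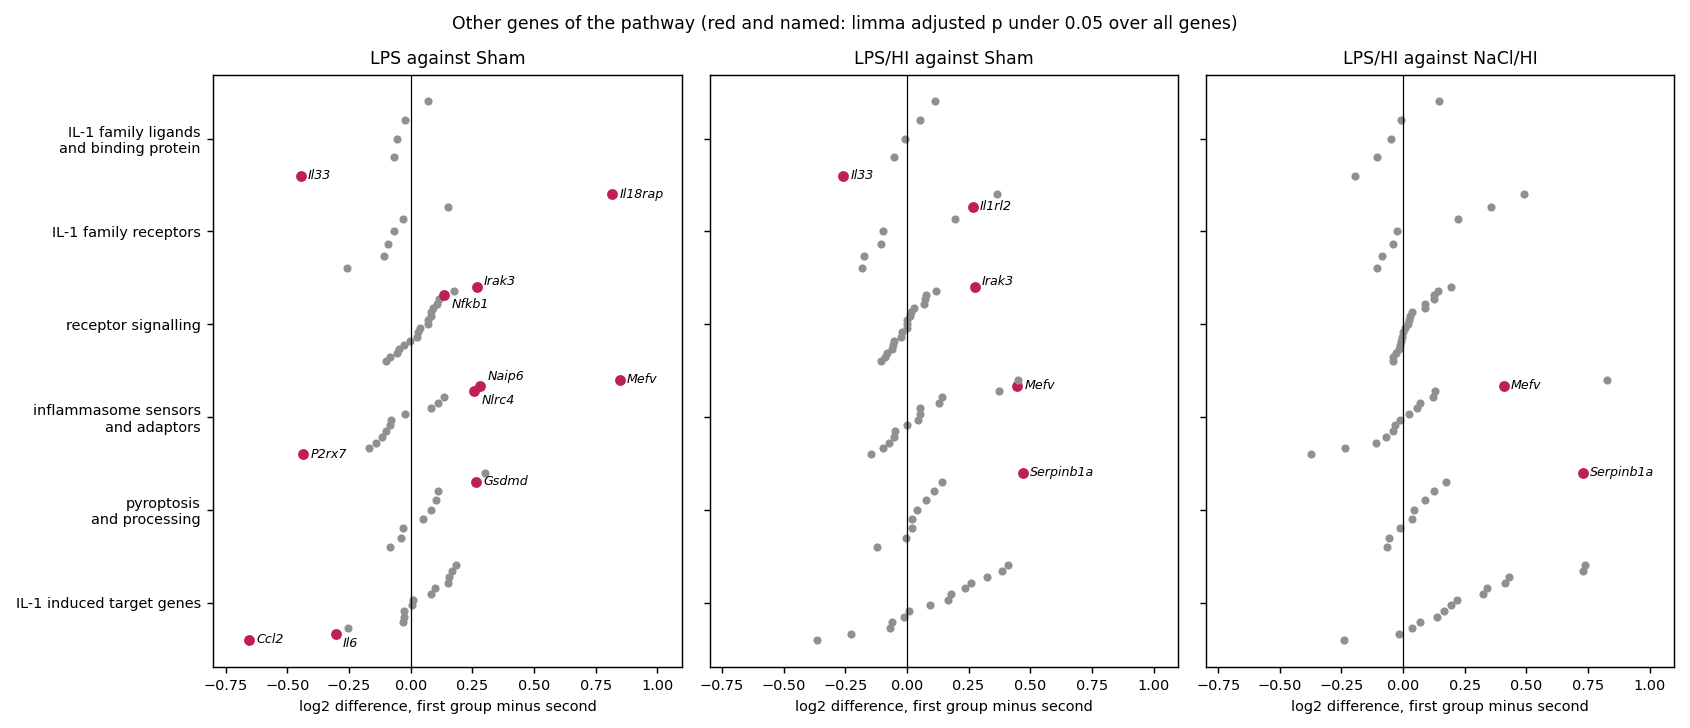
Log2 difference between group means for 68 further genes of the pathway in 6 groups by role, for 3 pairs of groups, red and named where the limma adjusted p is under 0.05. Mefv and Il18rap lie farthest to the right in LPS against Sham (0.85 and 0.82), Ccl2 farthest to the left (-0.66), and Serpinb1a is the red point farthest to the right in both comparisons of LPS/HI.

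Markers of other cells moved with 3 of the members. Of 80 correlations computed between a member and the mean log2 value of a marker list, the 3 highest were those of Il1r2 with neutrophils, Il1r1 with endothelium and Il1rn with monocytes, chosen after their values were seen. They are descriptions over 23 samples that share 2 library series and a table from which 3 variables had been removed. Il1r2 had a Pearson r of 0.87 and a Spearman rho of 0.70 with 16 neutrophil markers, 0.76 without the 2 samples farthest out and 0.77 for deviations from the group means. With the 8 monocyte markers Il1r2 had an r of 0.68, or 0.65 for such deviations. The log2 of the summed neutrophil markers ran from 12.2 to 12.6 in Sham, 12.5 to 12.7 in LPS, 12.4 to 12.9 in NaCl/HI and 12.6 to 13.6 in LPS/HI. LPS/HI replicate 4 had the highest sum of its group (13.6) and the highest Il1r2, and replicates 5 and 6 had the lowest sums (12.6 each) and the lowest Il1r2. Of the 16 markers, 5 rose in LPS/HI against Sham, beside 5.3% of all genes, namely Mmp8 (1.04), Mmp9 (0.75), S100a8 (1.11), S100a9 (1.18) and Padi4 (0.75). Over the 16 markers, 14 had a higher mean in LPS/HI, with a median log2 difference of 0.21 beside -0.0024 over all genes. The other 11 did not pass, with differences of 0.83 for Fcnb, 0.45 for Lcn2, 0.27 for Cxcr2, 0.15 for Csf3r, 0.14 each for Mpo and Prtn3, 0.12 for Camp, 0.042 for Ctsg, 0.021 for Elane, -0.16 for Ltf and -0.58 for Ngp. Lcn2 rose in LPS/HI against NaCl/HI (1.06). Ctsg and Elane stood near 0 in every group (log2 means of -0.23 to -0.18 and 0.29 to 0.36). The part of neutrophils in the Il1r2 difference was not tested.

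Il1r1 had an r of 0.87 and a rho of 0.86 with 11 endothelial markers, 0.85 without the 2 samples farthest out and 0.78 for deviations from the group means. Of these markers, 4 fell in LPS against Sham (Flt1, Kdr, Emcn and Esam, by -0.20 to -0.36) and 1, Pecam1, rose (0.15). Of all genes, 7.56% were called lower and 10.2% higher there. Flt1 and Esam rose in LPS/HI against LPS (0.31 and 0.38), where 1.22% of all genes were called higher. The log2 of the summed endothelial markers ran from 14.5 to 14.8 in Sham, 14.4 to 14.7 in LPS, 14.5 to 14.7 in NaCl/HI and 14.6 to 14.9 in LPS/HI, and none of the 11 stood near 0, with Emcn the lowest at group means of 7.96 to 8.32. Il1rn had an r of 0.76 and a rho of 0.64 with 8 monocyte markers, 0.59 without the 2 samples farthest out and 0.87 for deviations from the group means. The monocyte sums ran from 13.1 to 13.3 in Sham, 13.6 to 13.9 in LPS, 13.3 to 13.6 in NaCl/HI and 13.4 to 13.8 in LPS/HI, none of the 8 stood near 0, and 3 rose in LPS against Sham (Plac8, Spn and Itgal), where Il1rn did not pass. Il1rn had an r of 0.75 with 9 markers of mural cells and fibroblasts too. Of these, 0 were called in LPS against Sham (17.8% of all genes) and 4 rose in LPS/HI against Sham (5.3% of all genes). The part of these cells in the differences was not tested.

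Of the 14 microglial markers, 3 rose (C1qa, C1qb and C1qc) and 5 fell (P2ry12 and Cx3cr1 among them) in LPS against Sham, the comparison in which Il1b, Pycard and Casp1 rose. The log2 of their sum ran from 18.3 to 18.4 in LPS and from 18.2 to 18.5 in Sham, and their mean had an r of -0.11 with Il1b, -0.17 with Pycard and -0.27 with Casp1. Monocyte sums did not overlap between LPS and Sham in the ranges given above, and 3 of 8 monocyte markers rose. Of 16 neutrophil markers, Csf3r rose and Ngp and Camp fell. In the same comparison 1 of 7 border-associated macrophage markers rose and 2 fell, 2 of 7 astrocyte markers rose and 1 of 6 lymphocyte markers rose, where 10.2% of all genes were called higher and 7.56% lower. Their part in the differences was not tested.

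**Figure D4:**
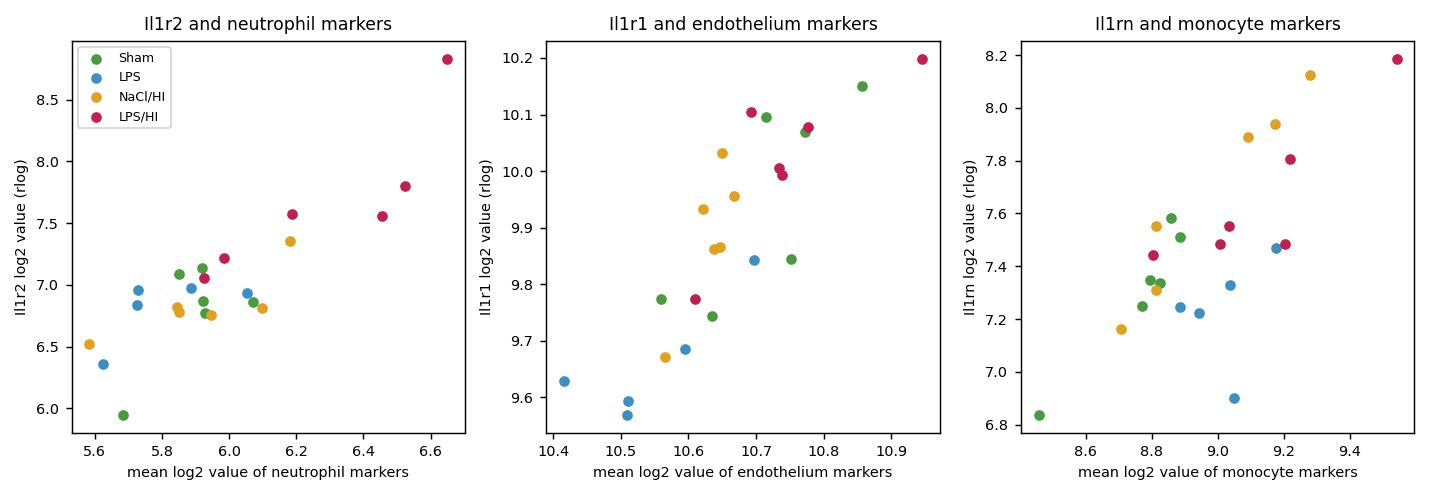
Log2 value of Il1r2, Il1r1 and Il1rn in each of the 23 samples against the mean log2 value of neutrophil, endothelial and monocyte markers, coloured by group. Il1r2 and the neutrophil mean are both highest in LPS/HI replicate 4 (8.83 and 6.65), and 3 of 5 LPS samples have the 3 lowest values on both axes of the Il1r1 plot.

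By the highest correlation over the 23 samples, the genes most like Il1r2 were Oas1k, Padi4 and Slc2a3 (r = 0.94 each). Padi4 is itself in the neutrophil list. Those most like Il1rn were Acod1 (0.93), Ifit1bl (0.92) and Nlrp12 (0.92). Among the members, the closest pairs were Il1rap with Il1r2 (0.76, or 0.63 for deviations from the group means) and Pycard with Casp1 (0.72, or 0.41).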

How the data were processed

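RNA sequencing of CD11b/c-captured microglia gave 23 samples in 4 groups, assigned by their titles. Per the labels and the study's methods, the authors quantified reads with kallisto 0.48.0 on mRatBN7.2, checked them with FastQC 0.11.9 and MultiQC 1.14, summed protein-coding genes of the same symbol, applied the rlog transformation of DESeq2 and removed 3 surrogate variables. The deposited log2 values cover 20301 genes, from -1.35 to 23.4, with library medians of 7.75 to 7.82. Read counts were not used here, so the study's test on counts was not run and depth, which limits precision, is unknown. Replicates are separate animals or pools.

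The log2 values were fitted with limma 3.58.1 (R 4.3.3, variance trend, all 23 samples) for each of 6 group pairs and for the LPS by HI interaction. To account for the surrogate variables, 16 residual degrees of freedom were used in place of 19. P-values were adjusted by Benjamini-Hochberg across the whole table, without a filter on low values. The fit was tested on simulated data. Alternatives were a fold threshold of 2, 19 degrees of freedom, no trend, only the groups compared, a replicate block, the library series, a filter on the lowest 25% of genes, quantile normalization, the exact two-sided Wilcoxon test and leaving out each library.

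The members, the 6 lists of further genes and the 8 marker lists were chosen with earlier results of these data known. All members are named, and from the further lists up to 3 called genes per list and comparison with the largest difference. The genes most like Il1b are not reported here. Of the lists, Il36a, Il36g, Ptges, Saa3, Cldn5 and Cd3g are not analysed here. Marker sums are log2 of summed 2-to-the-value levels. Promoter sequences and gene order are from RefSeq (GRCr8), another build than that of the values. Python 3.11.15, pandas 2.3.3 and matplotlib 3.10.9 were used for sequences and figures.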

Additional observations from a re-analysis of the deposited data

Results flagged for a closer look

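In 48 groups of samples (10 genes and 2 balances in 4 groups), a sample was set apart where its gap to the nearest other sample exceeded Dixon's 95% value for that group size, which chance does in about 1 in 20 groups. This held for 8 values. Il1r2 accounted for 3 of them, with log2 values of 5.95 in Sham replicate 5 (nearest sample 6.78), 6.36 in LPS replicate 4 (nearest 6.84) and 7.35 in NaCl/HI replicate 3 (nearest 6.82). The same NaCl/HI replicate 3 stood apart in the balance of Il1r2 minus Il1r1, at -2.32 (nearest -3.05). For Il1rap they were Sham replicate 5 at 7.83 (nearest 8.14), the sample also lowest in Il1r2, and NaCl/HI replicate 6 at 8.42 (nearest 8.10). For Il1a it was Sham replicate 1 at 10.85 (nearest 11.44), and for Il1rn minus Il1b it was LPS/HI replicate 1 at -3.77 (nearest -4.52). No member had an interaction of LPS with HI that passed the limma test after adjustment.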

How the results depend on the processing

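Of 70 member differences, 70 kept their direction and side of the threshold without a variance trend or without the lowest 25% of genes, 69 with the library series as a term, 67 after quantile normalization, 65 with 19 degrees of freedom and 64 with a replicate block. Of 60 pairwise ones, 57 did so in fits of only the groups compared and 54 with the exact Wilcoxon test. A fold change above 2 left 0 members in LPS against Sham, LPS/HI against Sham, LPS/HI against LPS and LPS against NaCl/HI. In LPS/HI against Sham, quantile normalization left 1 member (Il1r2) and the Wilcoxon test 1 (Casp1). In LPS/HI against LPS, 19 degrees of freedom gave 2, and the replicate block and the Wilcoxon test 0. With 19 degrees of freedom LPS/HI against NaCl/HI gave 1 (Il1b) and the interaction 1 (Il1r1). In LPS against NaCl/HI, the fit of only these groups and the replicate block gave 1 (Il1b) and the Wilcoxon test 0. The Wilcoxon test called 0 of all genes in LPS/HI against LPS and in LPS against NaCl/HI, as in the other comparisons except LPS against Sham and LPS/HI against Sham, so its 0 there says nothing about the members. For the other settings the cause was not tested.

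Leaving out 1 library gave 3 to 5 members in LPS against Sham, 0 to 3 in LPS/HI against Sham, 0 to 2 in LPS/HI against LPS, 0 to 1 in LPS/HI against NaCl/HI, 1 to 2 in LPS against NaCl/HI and 0 to 1 for the interaction. Over 1610 such values, 1541 kept direction and call and 37 turned sign, all in differences near 0 that were not called. Their ranges in LPS against Sham were -0.17 to 0.019 (Il1a), -0.17 to 0.0042 (Il1rn), -0.023 to 0.077 (Il1rap), -0.13 to 0.15 (Il1r2) and -0.019 to 0.057 (Nlrp3). In NaCl/HI against Sham they were -0.088 to 0.000392 (Il1rap) and -0.10 to 0.13 (Il1r2), in LPS/HI against Sham -0.040 to 0.015 (Nlrp3), and in LPS/HI against LPS -0.069 to 0.0071 (Nlrp3) and -0.10 to 0.000671 (Casp1). For LPS/HI against NaCl/HI they were -0.042 to 0.020 (Il18) and -0.11 to 0.088 (Il1rn), in LPS against NaCl/HI -0.092 to 0.086 (Il1r2), and for the interaction -0.032 to 0.11 (Il1b) and -0.030 to 0.17 (Il1rn).

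Replicate numbers did not pair the samples: of 33 same-numbered pairs, 9 correlated above 0.1 in their deviations from the group means (range -0.47 to 0.47, mean 0.0061). With the replicate block, 3 members were called in LPS against Sham, Il1r2 there turned to -0.00112, and calls were lost for Il1r1 in LPS against Sham and LPS/HI against LPS, Pycard in LPS against NaCl/HI and Casp1 in LPS/HI against Sham, while Il1b in LPS/HI against Sham passed (adjusted p = 0.0479). Quantile normalization turned Il1r2 in LPS against NaCl/HI to 0.022. Depth is unknown and sets no bound here.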

Other observations

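Within the treatment groups, Il1b and Il1rn ran opposite to each other. Their Pearson r over the 23 samples was -0.48, and -0.68 for deviations from the group means. In NaCl/HI, the samples of library numbers 1 to 12 had the higher Il1rn (7.89, 7.94 and 8.13) and the lower Il1b (11.49, 11.49 and 11.76). The part of the library series in this opposition was not tested. The pair was picked out of all pairs of members after their values were seen, and the samples share a table from which 3 variables had been removed, so it is given as a description. Il1b also ran opposite to the mean of the monocyte markers for deviations from the group means (-0.61), while Il1rn ran with it (0.87).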
